A study of Arabidopsis thaliana with 4 samples.

Results

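The 8 genes described here are touch-induced (TCH) and calmodulin-like (CML) genes of Arabidopsis thaliana: TCH2 (AT5G37770), TCH3 (AT2G41100), TCH4 (AT5G57560), CML23 (AT1G66400), CML37 (AT5G42380), CML38 (AT1G76650), CML39 (AT1G76640) and CML42 (AT4G20780). They were chosen by name from 32548 nuclear loci, with the read counts and ratios of these same libraries already known. Their values are therefore given as a description, with no test. Of the 8 genes, 6 had at least 40 reads over all libraries and were compared between libraries, as were 15669 loci in all. CML42, with 28 reads, and CML39, with 7, fell below that minimum, and CML23, with 72, was the lowest gene above it.

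The libraries came from nuclear RNA of Col-0 leaves, sequenced with and without capture of MTA, the methyltransferase that forms N6-methyladenosine in messenger RNA. The groups were an MTA-GFP immunoprecipitate (IP), an MTA-GFP input, a control IP and a control input, with 1 library in each. MTA-GFP plants carry MTA fused to green fluorescent protein. For the control line the titles give GFP and the genotype label gives CFP, so it is named "control" throughout. All plants were 4 weeks old and were grown in soil with 16 h of light and 8 h of dark at 22 °C. The tissue of all groups, also the controls, was crosslinked in 0.1% formaldehyde, and both IPs used GFP-Trap beads. The labels name the tissue as leaf and as aerial tissue. The sources used here do not give the promoter of the transgene, the number of plants behind a library or any touch or wounding of the plants.

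Touch, wind or wounding of an Arabidopsis leaf raises calcium in the cytosol within seconds, and a set of transcripts accumulates within minutes. The TCH genes were named for this response. TCH1 encodes a calmodulin (CAM2), TCH2 and TCH3 encode calmodulin-like proteins, and TCH4 encodes a xyloglucan endotransglucosylase/hydrolase (XTH), an enzyme that cuts and rejoins the xyloglucan chains of the cell wall. Calmodulin-like proteins bind calcium through EF-hand motifs and pass the signal to target proteins. Methylation by MTA takes place on nascent RNA in the nucleus, the compartment sampled here.

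The libraries held 36098699, 43950307, 45198238 and 40011502 reads in the MTA-GFP IP, MTA-GFP input, control IP and control input. Nuclear mRNA took 8.43%, 2.30%, 2.11% and 4.31% of the reads in the same order, and chloroplast RNA took 5.88%, 19.6%, 49.8% and 22.1%. The MTA locus had 356 and 52.1 RPM (reads per 1000000 library reads) in the MTA-GFP IP and input, against 0.686 and 1.60 in the control IP and input. All 6 leaf markers had reads in every library, and 4 flower markers together had 8, 3, 2 and 3 reads. Because the mRNA share differs so much, reads below are divided by library factors from the trimmed mean of M-values (TMM) over the 15669 loci and are called scaled reads. Scaled reads describe the place of a gene among nuclear transcripts and not its amount in the tube. Intervals are 95% intervals for counting error only, since copies made by PCR cannot be told from separate molecules. No difference has a replicate check, and in leaf tissue fewer cells of a type and less RNA per cell cannot be told apart.

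The 8 genes together had 2185 reads in the MTA-GFP IP, 639 in the MTA-GFP input, 783 in the control IP and 2013 in the control input. On the TMM scale these were 923, 997, 1347 and 1774 scaled reads, so the sum was lowest in the MTA-GFP IP and highest in the control input. TCH3 alone made up 53.7%, 65.1%, 71.5% and 53.5% of the reads of the 8 genes in the same order, and the sum therefore follows TCH3 more than any other member.

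Levels can be set between genes only per length. Deposited TPM was rescaled for this purpose so that nuclear protein-coding loci alone make up its total (mRNA TPM). TCH3 had the highest mRNA TPM of the 8 genes in every library, at 510, 518, 735 and 842 in the MTA-GFP IP, MTA-GFP input, control IP and control input. It ranked 155th, 195th, 87th and 101st of 27440 protein-coding loci. TCH3 encodes a protein with repeated calmodulin-like EF hands, and its transcript was among the abundant nuclear mRNAs of these leaves in all libraries.

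Below TCH3 the order of levels changed from library to library. In the MTA-GFP IP, TCH4 followed at 201 mRNA TPM (185 to 218), then TCH2 at 136 (119 to 155), CML38 at 86.1 (69.0 to 106), CML23 at 34.2 (25.7 to 44.7) and CML37 at 16.8 (12 to 22.8). The counting intervals of these neighbours in the order do not overlap. CML39 and CML42, at 8.85 and 8.18 mRNA TPM, could not be told apart there. In the MTA-GFP input, TCH2 at 146 mRNA TPM (115 to 182), CML38 at 91.6 (63.4 to 128) and TCH4 at 82.0 (65.8 to 101) overlapped in part, since 34 to 88 reads stand behind each. CML37 at 15.5 and CML23 at 10.3 overlapped as well.

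In the control IP, TCH4 at 153 mRNA TPM (130 to 180) stood above TCH2 at 81.3 (59.1 to 109), and TCH2 overlapped CML38 at 59.1 (36.1 to 91.3). CML37, CML23 and CML42 lay between 3.77 and 7.36 mRNA TPM there, with 2 to 6 reads each. In the control input, TCH2 was second at 410 mRNA TPM (368 to 455), ranking 260th of all protein-coding loci. TCH4 at 157 (138 to 177), CML37 at 148 (129 to 170) and CML38 at 140 (112 to 174) had overlapping intervals below it. CML37 thus ranked 998th of the protein-coding loci in the control input, against 12048th, 10220th and 13915th in the MTA-GFP IP, MTA-GFP input and control IP.

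**Figure D1:**
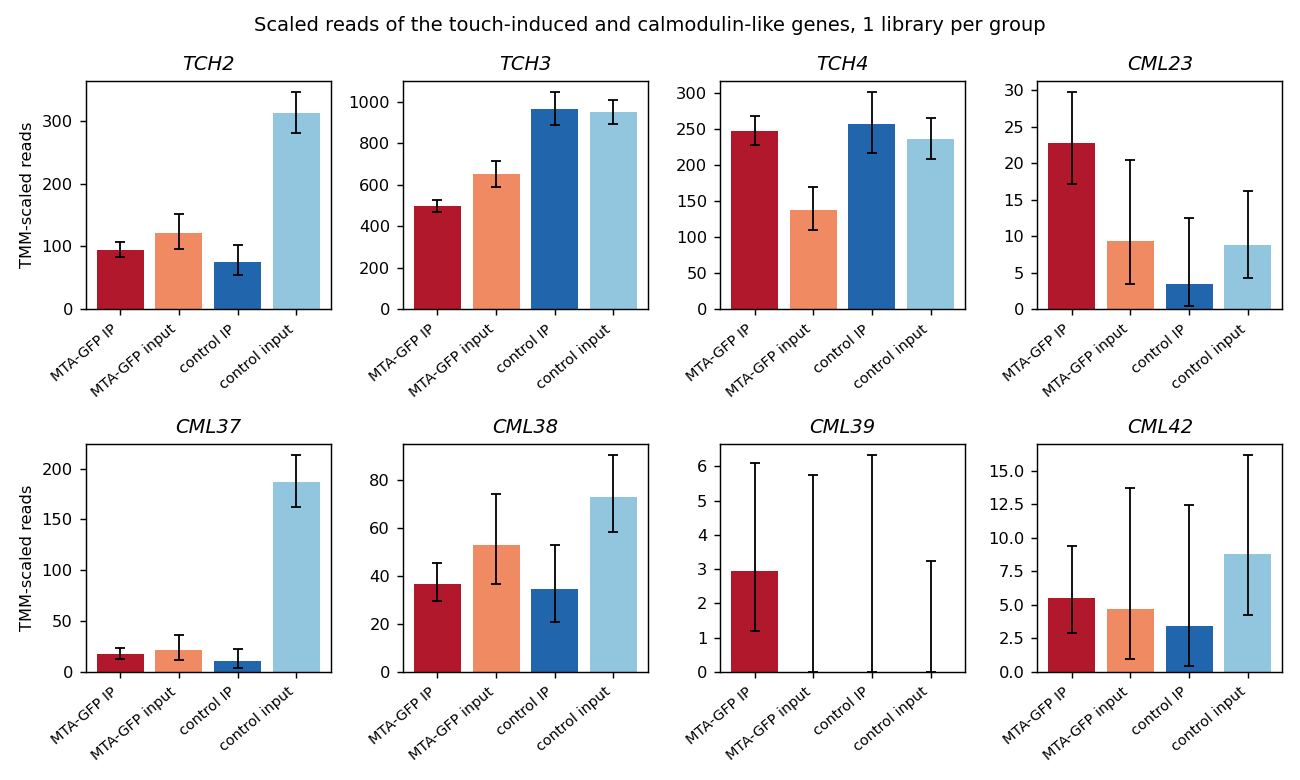
Bars give TMM-scaled reads of each of the 8 genes (y axis, linear, 1 panel per gene) in the MTA-GFP IP, MTA-GFP input, control IP and control input (x axis), and whiskers are exact 95% Poisson intervals of the reads. CML37 and TCH2 stand high in the control input alone, and CML23 is highest in the MTA-GFP IP. On this scale TCH3 is higher in both control libraries than in both MTA-GFP libraries.

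CML37 encodes a calcium sensor known for its part in wound and herbivore responses. Its reads numbered 41 in the MTA-GFP IP, 14 in the MTA-GFP input, 6 in the control IP and 212 in the control input, or 17.3, 21.9, 10.3 and 187 scaled reads. The control input was high and the other 3 libraries were low and close to each other. CML37 was 17.4-fold lower in the control IP than in the control input (log2 ratio -4.12, interval -5.64 to -3.03), and 8.41-fold lower in the input of MTA-GFP plants than in that of the control (log2 ratio -3.07, -3.99 to -2.32). Between the MTA-GFP IP and input the log2 ratio was -0.33 (-1.24 to 0.65).

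TCH2 encodes the calmodulin-like protein also called CML24. Its reads numbered 224, 78, 44 and 354 in the MTA-GFP IP, MTA-GFP input, control IP and control input, or 94.6, 122, 75.7 and 312 scaled reads. As for CML37, the control input was the high library. TCH2 was 4.10-fold lower in the control IP than in the control input (log2 ratio -2.04, -2.53 to -1.59) and 2.56-fold lower in the input of MTA-GFP plants than in that of the control (-1.35, -1.73 to -1.0). Its MTA-GFP IP over input log2 ratio was -0.36 (-0.74 to 0.03). Scaled reads in the control input at least 2-fold above each of the other 3 libraries were found for 3.33% of the loci compared, CML37 and TCH2 among them, which is a description of this pattern chosen after it was seen.

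CML23 encodes a close relative of TCH2. Its reads numbered 54 in the MTA-GFP IP, 6 in the MTA-GFP input, 2 in the control IP and 10 in the control input, or 22.8, 9.37, 3.44 and 8.81 scaled reads. The MTA-GFP IP was the high library here, and the other 3 rest on 10 reads or fewer each. CML23 was 2.37-fold higher in the MTA-GFP IP than in the MTA-GFP input (log2 ratio 1.25, 0.07 to 2.79) and 6.01-fold higher in the MTA-GFP IP than in the control IP (2.59, 0.81 to 5.81). The inputs differed by a log2 ratio of 0.08 (-1.66 to 1.69). An MTA-GFP IP at least 2-fold above each of the other 3 libraries was found for 0.823% of the loci compared, CML23 among them. This pattern was chosen after it was seen. Without the MTA-GFP IP, CML23 would fall below the read minimum, so the share is a description and not a measure of how rare the pattern is.

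CML38, a calcium sensor known from hypoxic stress granules, had 87, 34, 20 and 83 reads in the MTA-GFP IP, MTA-GFP input, control IP and control input. These were 36.7, 53.1, 34.4 and 73.2 scaled reads, so that each input stood above its IP and the IPs were nearly level. CML38 was 2.11-fold lower in the control IP than in the control input (log2 ratio -1.08, -1.87 to -0.37). Its MTA-GFP IP over input ratio was -0.53 (-1.12 to 0.09), and its input ratio of MTA-GFP over control was -0.46 (-1.08 to 0.13).

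TCH3 was counted most precisely, with 1174, 416, 560 and 1077 reads in the MTA-GFP IP, MTA-GFP input, control IP and control input, or 496, 649, 964 and 949 scaled reads. On the TMM scale both control libraries stood above both MTA-GFP libraries. The log2 ratio was -0.96 (-1.10 to -0.81) between the IPs, MTA-GFP over control, with 5.05% of the loci compared lying lower. Between the inputs it was -0.55 (-0.71 to -0.38). Neither reached 2-fold.

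TCH4, the XTH of the group, had 585 reads in the MTA-GFP IP, 88 in the MTA-GFP input, 149 in the control IP and 267 in the control input, or 247, 137, 256 and 235 scaled reads. The MTA-GFP input was the low library and the other 3 lay close together. The log2 ratio was 0.85 (0.52 to 1.19) for the MTA-GFP IP over its input and -0.77 (-1.14 to -0.42) for the MTA-GFP input over the control input, short of 2-fold in each case. The IPs differed by -0.05 (-0.32 to 0.22).

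CML42, a calcium sensor known for effects on trichome branching and herbivore defence, had 13, 3, 2 and 10 reads in the same order of libraries. None of its 5 ratios was detectably different from 1 at this depth. CML39, a close relative of CML37 and CML38, had 7 reads in the MTA-GFP IP and 0 in the other 3 libraries. The reference table lists the name CML39 as a synonym of this locus and also of the CML37 locus, so the locus AT1G76640 and not the name identifies it here. A count of 0 allows up to 3 reads, which is 0.0683, 0.0664 and 0.0750 RPM in the MTA-GFP input, control IP and control input, against 0.194 (0.0780 to 0.40) measured in the MTA-GFP IP. On the TMM scale the 3 reads allowed in the MTA-GFP input and control IP exceed the level in the MTA-GFP IP, so no fold is given.

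In the MTA-GFP IP over the MTA-GFP input, 1 of the 6 genes compared (CML23) was called higher, which means a ratio of at least 2-fold whose interval leaves out 1, where 7.17% of all loci were called higher. No gene of the 6 was called lower, where 8.44% of loci were, and 15.6% of loci were called in either direction. Their median log2 ratio was -0.35, beside -0.03 over all loci. In the control IP over the control input, 0 of 6 were higher, where 9.2% of loci were called higher, and 3 of 6 (TCH2, CML37 and CML38) were lower, where 12.4% were called lower and 21.6% in either direction. The median of the 6 genes was -1.17, beside -0.01 over all loci. The genes were chosen with these values known, so the shares describe the members and nothing more. CML23 met the read minimum only through the MTA-GFP IP. Its calls, and the medians that include it, are therefore description alone here and below.

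The double ratio, the MTA-GFP IP over input divided by the control IP over input, was called higher for 3 of 6 genes, where 8.78% of all loci were called higher, and lower for 0 of 6, where 8.93% were called lower and 17.7% in either direction. The 3 genes were CML37 at a log2 double ratio of 3.79 (2.38 to 5.21), CML23 at 2.50 (0.19 to 4.81) and TCH2 at 1.67 (1.09 to 2.26). The CML23 value was 2.29 and not called when 0.5 reads were added without scaling to the library. TCH4 had 0.72 (0.29 to 1.15), CML38 0.55 (-0.35 to 1.45) and TCH3 -0.41 (-0.63 to -0.19). The median of the 6 genes was 1.20, beside -0.01 over all loci. Among the genes other than CML23 the middle value was the 0.72 of TCH4.

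The double ratio of a gene is also its ratio between the IPs less its ratio between the inputs. For CML37 the 3.79 is made of a log2 ratio of 0.72 (-0.50 to 2.27) between the IPs and -3.07 between the inputs. For TCH2 the 1.67 is made of 0.32 (-0.15 to 0.82) between the IPs and -1.35 between the inputs. Neither CML37 nor TCH2 was called between the IPs. For CML23 the parts were 2.59 between the IPs and 0.08 between the inputs. Thus 2 of the 3 called double ratios rest on a high control input, and the other rests on a high MTA-GFP IP with 2 reads in the control IP.

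Between the IPs, MTA-GFP over control, 1 of 6 genes (CML23) was called higher, where 5.12% of loci were called higher, and 0 lower, where 4.23% were called lower and 9.36% in either direction. The median of the 6 genes was 0.21, beside -0.01 over all loci. Between the inputs, MTA-GFP over control, 0 of 6 were called higher, where 7.05% of loci were called higher, and 2 of 6 (CML37 and TCH2) lower, where 6.8% were called lower and 13.8% in either direction. The median was -0.66, beside -0.01 over all loci, and 5 of the 6 genes lay below 0, CML23 being the exception. These comparisons share libraries and are not separate observations.

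**Figure D2:**
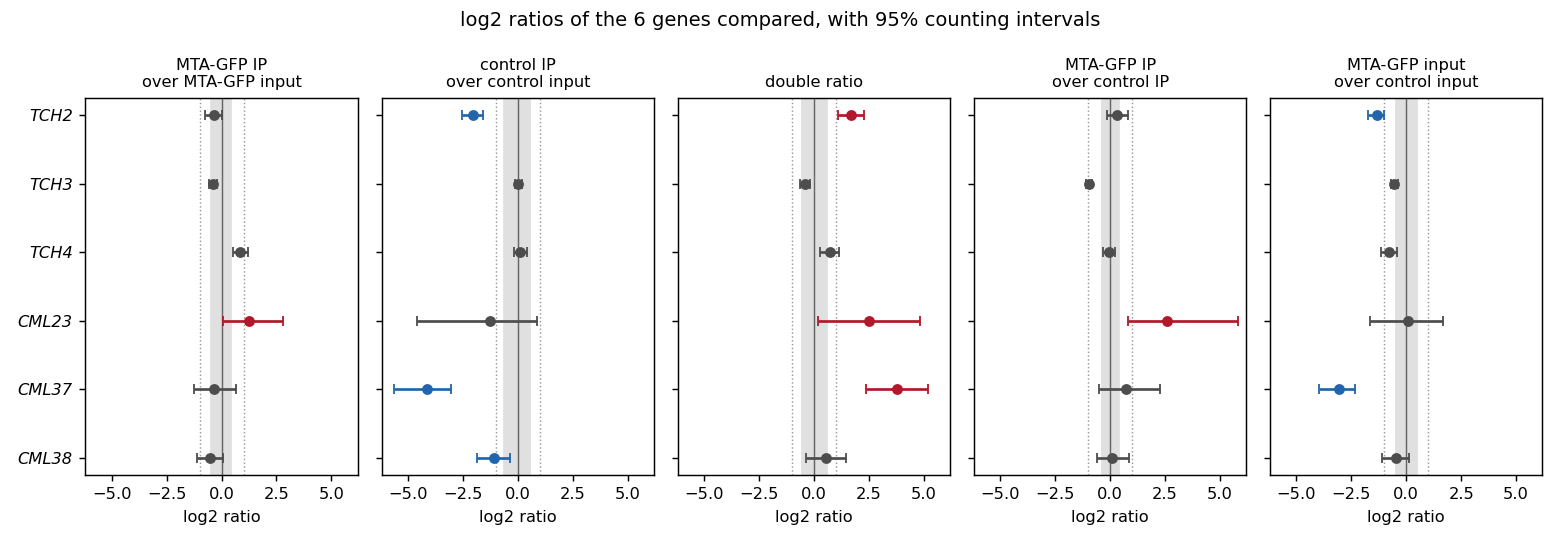
Points give the log2 ratio (x axis) of each of the 6 genes compared (rows) in 5 ratios (panels), with 95% counting intervals, and red and blue mark genes called higher and lower. The grey band spans the quartiles of all loci and dotted lines mark 2-fold. CML37 and TCH2 are called in the panels that hold the control input and not in the panel between the IPs, where CML23 alone is called.

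Scaling moved all loci together, and the members with them. With reads scaled to the library totals in place of TMM, the median log2 double ratio of all loci was 3.25, and 99.8% of called loci were higher, against 49.6% with TMM. All 6 genes were then called higher in the double ratio, which added TCH4 at 4.02, CML38 at 3.82 and TCH3 at 2.90. The TCH3 value lay below the median of all loci, and TMM gave -0.41. With reads scaled to nuclear mRNA reads, 81.1% of called loci were higher, TCH4 was called higher with 1.13 and TCH3 was at 0.00, so the sign of the TCH3 double ratio depends on the scaling. With deposited TPM plus 0.1 in place of scaled reads, 7 of the 10 calls of member ratios were lost and none of the 10 changed sign. No interval was computed with TPM, so called there means at least 2-fold alone. The double ratio was then called higher for 4 genes, with TCH3 at 1.05 and TCH4 at 1.29 gained and CML23 at 0.53 lost. TCH4 at 1.34, and not CML23 at 0.47, was the gene called higher in the MTA-GFP IP over its input.

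Marker genes of leaf cell types were set beside these values. The 6 leaf markers together had 23503, 40123, 24654 and 12304 scaled reads in the MTA-GFP IP, MTA-GFP input, control IP and control input, lowest in the library where CML37 and TCH2 were high. The 3 guard cell markers had 127, 195, 102 and 178 scaled reads, and the 3 phloem markers had 201, 821, 742 and 560, and neither list was highest or lowest in the control input. The 4 root markers had 65.0, 98.3, 46.5 and 97.0, with TIP2;3 at 0 in both inputs and in the control IP and COBL9 at 0 in the MTA-GFP input and the control IP. The part of these differences in the values of CML37 and TCH2 was not tested.

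TCH2, TCH3 and CML38 have several transcript models in the files, and the division of reads among models was estimated by Salmon. The intervals of shares take these estimates as counts and leave out the error of the division. TCH2 has a model of 910 bases and one of 1737 bases. The longer model received 22.9% (17.9% to 28.9%) of TCH2 reads in the MTA-GFP IP, against 2.31% (0.597% to 8.49%) in the MTA-GFP input, and 20.7% (11.4% to 34.8%) in the control IP, against 4.98% (3.16% to 7.76%) in the control input (Wilson intervals). The longer model had 51.4, 1.80, 9.12 and 17.6 estimated reads in the MTA-GFP IP, MTA-GFP input, control IP and control input. The shares in the MTA-GFP input and control IP thus rest on few reads. Each IP was above both inputs, in MTA-GFP and control alike.

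TCH3 has 7 models, of which 4 exceed 1300 bases. These 4 received 25.7% (23.2% to 28.2%) of TCH3 reads in the MTA-GFP IP, against 10.4% (7.80% to 13.7%) in the MTA-GFP input, and 26.4% (22.9% to 30.2%) in the control IP, against 11.2% (9.41% to 13.2%) in the control input. As for TCH2, both IPs lay above both inputs, and the intervals of the IPs overlapped. The longest TCH3 model, of 2288 bases, received 5.64% (4.46% to 7.11%) of TCH3 reads in the MTA-GFP IP and 2.56% (1.54% to 4.23%) in the control IP. It received 0.680% and 0.271% in the MTA-GFP input and control input. The intervals of the IPs do not overlap, but without the error of the division this does not settle a difference. A TCH3 model of 1252 bases received 5.83% in the control input and 0 or nearly 0 in every other library.

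This shift was compared with other genes through the mean length of the models of a locus, weighted by their reads. For TCH2 it was 171 bases longer in the MTA-GFP IP than in the MTA-GFP input and 130 bases longer in the control IP than in the control input. For TCH3 the differences were 89.8 and 66.5 bases, and for CML38 they were 1.3 and 1.65 bases. Among 4322 loci with models of several lengths and at least 20 reads in each library, 37.8% were longer in both IPs, 64.1% in the MTA-GFP IP than its input and 52.0% in the control IP than its input. Of these loci, 90.7% had a smaller difference than TCH2 in MTA-GFP and 88.8% in the control. The same shares were 77.4% and 79.0% for TCH3 and 37.9% and 50.8% for CML38.

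**Figure D3:**
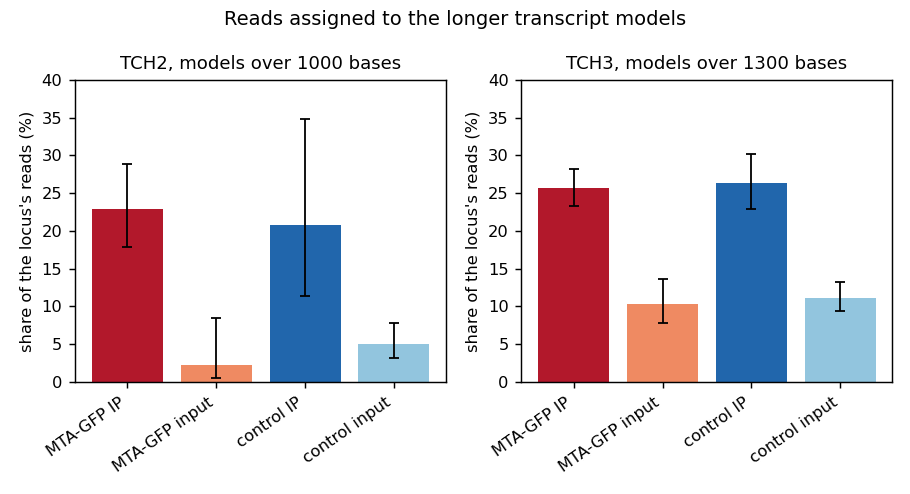
Bars give the share of the estimated reads of TCH2 (left) and TCH3 (right) assigned to the longer models (y axis, percent) in each library (x axis), with 95% Wilson intervals. For both genes the IPs lie above the inputs, at 20.7% to 26.4% against 2.31% to 11.2%.

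The spans of TCH2 and TCH3 overlap other annotated loci. TCH2, on chromosome 5, shares 723 bases with AT5G37760, which had 2 reads in the control IP and 0 elsewhere. With the shorter TCH2 model alone, none of the 5 TCH2 ratios changed its call or direction. TCH3, on chromosome 2, shares 342 bases with the non-coding locus AT2G09220, which had 9 reads in all, and 827 bases with AT2G41105, which had 35, 14, 17 and 32 reads in the MTA-GFP IP, MTA-GFP input, control IP and control input. The strand setting of the counting is not given, so reads in these overlaps cannot be assigned with certainty. No overlap was annotated for the other 6 genes.

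For CML23, CML37, CML39 and CML42 the only transcript model is as long as the annotated gene span, so these files hold no separate spliced and unspliced form of them. CML37 and CML42 are on chromosomes 5 and 4. CML38 and CML39 are neighbours on chromosome 1, with 883 bases between them, and differed widely in reads. Neighbours were taken as the nearest annotated locus on each side. By this rule TCH2 is the neighbour of CAM1, CML23 of CAM4 and TCH4 of XTH25. For TCH3 both nearest loci overlap it, so genes just beyond them were not looked at. Among 14 neighbouring loci, 8 were compared. In the double ratio 1 was called higher, AT1G76660 next to CML38 at 1.22, where 8.78% of all loci were called higher. None was called lower, where 8.93% were. The neighbours of CML37 were not called. AT5G42370 had 24, 8, 5 and 5 reads and SPP had 813, 250, 190 and 332 reads in the MTA-GFP IP, MTA-GFP input, control IP and control input. In neither neighbour was the control input set apart as it was for CML37.

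The typical calmodulins, CAM1 to CAM7, bind calcium and activate many target proteins. All 7 were compared, and 0 were called in the double ratio, where 17.7% of all loci were. Their median double ratio was -0.29. CAM2, the gene also called TCH1, had 84, 12, 25 and 24 reads in the MTA-GFP IP, MTA-GFP input, control IP and control input, and its log2 ratios were 0.91 for the MTA-GFP IP over input and 1.01 for the control IP over input. CAM4, beside CML23, had the lowest double ratio at -0.79 and CAM7 the highest at 0.70. None of the calmodulins was called between the inputs, where 13.8% of all loci were. Their ratios there ran from -0.17 to 0.88.

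Of 7 other calmodulin-like loci named so in the reference table, 2 were compared. CML41 had 87, 16, 11 and 41 reads in the MTA-GFP IP, MTA-GFP input, control IP and control input. It was called higher in the double ratio at 1.47, where 8.78% of all loci were. CML9 had 195, 57, 59 and 127 reads and a double ratio of 0.03. Neither was called between the inputs, where 13.8% of all loci were.

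The other XTH genes, relatives of TCH4, showed the widest spread of the comparison lists. Of 32 listed, 16 were compared, with a median double ratio of -0.25. The double ratio was called higher for 3 and lower for 1, where 8.78% and 8.93% of all loci were. XTH18 had 30, 6, 5 and 65 reads in the MTA-GFP IP, MTA-GFP input, control IP and control input and a double ratio of 3.10. XTH19 at 2.49 and XTH11 at 2.26 were the others called higher, and both were named after their values were seen. Between the inputs 3 of the 16 were called lower and 3 higher, where 6.8% and 7.05% of all loci were. XTH18 had -2.56, XTH19 -1.96 and XTH11 -1.45 there, and each was called lower in MTA-GFP. These XTH genes and CML37 and TCH2 thus had a common direction between the inputs, while XTH31 at 1.96, XTH7 at 1.60 and XTH6 at 1.38, likewise named after the fact, were called higher. XTH9 had the lowest double ratio of the XTH genes at -1.01, and XTH27 and XTH4, the XTH genes with the most reads, had -0.56 and 0.09. XTH18 and XTH19 are close relatives, and reads that match both are divided by estimation.

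The next list holds channels, pumps and receptors that act before or beside the calcium sensors. Of 14 listed, 13 were compared, and the double ratio, of median -0.19, was called higher for 0 and lower for 2, where 8.93% of all loci were called lower. OSCA1.1, an osmotically gated calcium channel, had -1.18, and MSL10, a mechanosensitive channel named after its value was seen, had -1.08. The receptor kinase FER had 0.02, the calcium pump ACA10 -0.09 and the stretch-linked channel MCA1 0.41. None of the 13 was called between the inputs, where 13.8% of all loci were.

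Calmodulin-binding transcription activators (CAMTA) couple calcium signals to transcription. All 6 were compared, and none was called in any of the 5 ratios, where 9.36% to 21.6% of all loci were. Their double ratios ran from -0.15 (CAMTA6) to 0.75 (CAMTA3), with CAMTA1 at -0.15. Between the inputs their median was -0.35 and all 6 lay below 0. Early regulators of touch and wound responses were compared in full, 17 of 17. In the double ratio 1 was called higher, ZAT12 at 1.22, named after its value was seen, where 8.78% of all loci were called higher. None was called lower, where 8.93% were. Of the 17, 14 lay above 0, with a median of 0.31. The most abundant, the zinc finger gene SZF1 and the transcription factor gene WRKY33, had 0.28 and 0.07. MKS1 was highest at 1.40, not called, on 83 reads, of which 55 were in the MTA-GFP IP. Without that library MKS1 would fall below the read minimum. ERF4 was lowest at -0.52.

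Between the inputs 0 of these 17 regulators were called higher and 2 lower, where 7.05% and 6.8% of all loci were. The 2 were WRKY53 and ERF104, each at -1.15 and named after their values were seen. Of the 17, 13 lay below 0 and the median was -0.57, beside -0.66 for the 6 touch-induced and calmodulin-like genes. The list was drawn up with earlier results of these data known, so its median is a description. The median of the calmodulins between the inputs was 0.17, and the leaf markers had 40123 scaled reads in the MTA-GFP input, against 12304 in the control input. Differences between the lists were not tested.

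**Figure D4:**
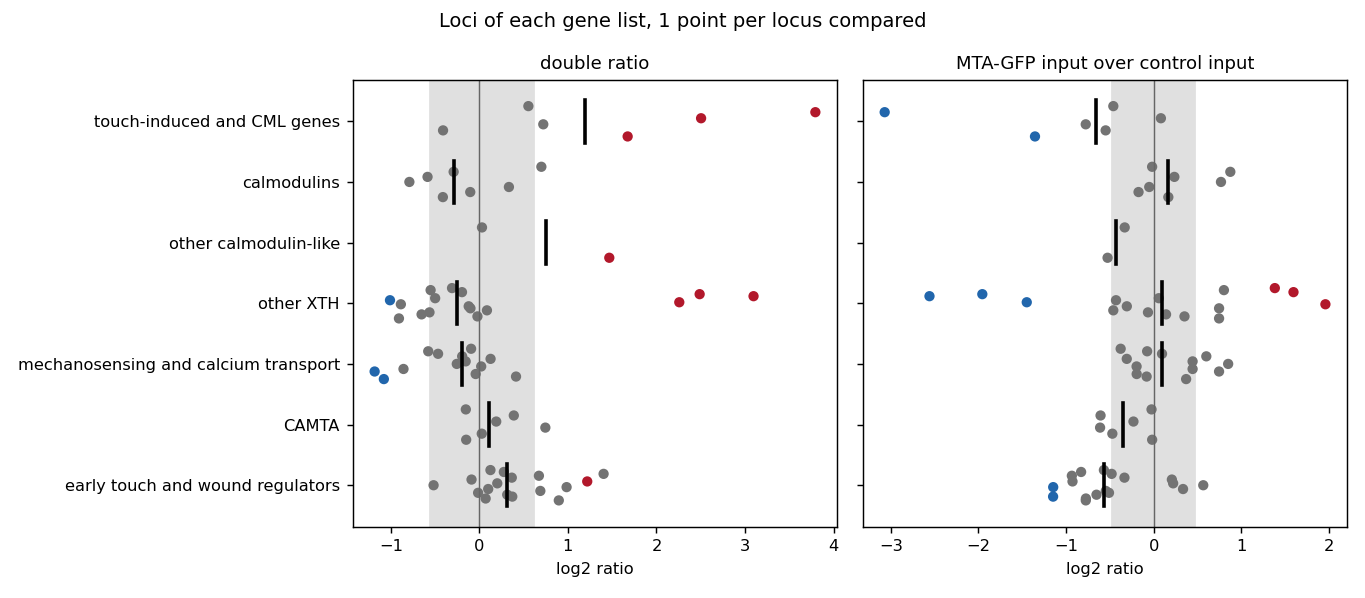
Each point is 1 locus compared, by gene list (rows), at its log2 double ratio (left) and its log2 ratio of MTA-GFP input over control input (right). Black bars are list medians, grey bands span the quartiles of all loci, and red and blue mark calls. The 6 touch-induced and calmodulin-like genes, CML23 included, have medians of 1.20 and -0.66. On the left panel 3 other XTH genes lie far to the right with CML37.

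The profiles of the 6 genes over the libraries were not alike. Distances were taken between log2 scaled reads, centred on each gene's mean over the 4 libraries. The closest pair was TCH2 and CML38 at 0.764 log2 units, the next was TCH3 and TCH4 at 0.939, and the farthest was CML23 and CML37 at 3.41. TCH2 and CML37, which share the high control input, were 1.61 apart, and TCH2 and its close relative CML23 were 2.24 apart. CML38 lay nearest to the median profile of the 6 genes at 0.185, and CML37 lay farthest at 2.34.

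Of 7699 loci with at least 200 reads, the 8 nearest to the median profile lay within 0.0938 log2 units. They were AT3G59310, the response regulator ARR9, AT2G44710, the calcium-dependent protein kinase CPK28, PDE329, the cyclin CYCT1;4, AT2G39280 and AT5G24890. CPK28 had 932, 282, 194 and 790 reads in the MTA-GFP IP, MTA-GFP input, control IP and control input. The nearest locus to TCH2 was the heat shock factor gene HSF4 at 0.0939, with 209, 69, 38 and 329 reads, and the nearest to CML38 was the homeobox gene HB5 at 0.0473. TCH3 was matched most closely by AT3G61280 at 0.0548 and TCH4 by HIRA at 0.0492. CML23 and CML37 had no near match among the 7699 loci, with ATBCAT-5 at 0.439 and AT1G10320 at 0.632. Loci below 200 reads were left out, although CML23 itself had 72. With 4 points per profile, many loci lie close to any common shape.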

How the data were processed

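RNA was measured in 4 libraries, grouped by the sample titles. The submitters' processing notes name the build TAIR10 and the tools Salmon, HISAT2, Bowtie and Trimmomatic. Roles, versions and strand setting are not stated there. Per the file headers, the authors deposited estimated counts and TPM by transcript entry. Where a read fits several entries Salmon splits it, which leaves the values of close relatives uncertain.

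Counts of all entries of a locus were added and rounded. Of 24235 nuclear loci with reads, 15669 with at least 40 were compared. TMM factors (edgeR 4.0.16, R 4.3.3) were 2.37, 0.641, 0.581 and 1.13 in the MTA-GFP IP, MTA-GFP input, control IP and control input. Ratios had 0.5 reads added, in proportion to the library factor. Intervals of ratios of a pair of libraries are exact conditional (Clopper-Pearson), and double ratios use Poisson variances on the log scale. Called means at least 2-fold with the interval off 1. With deposited TPM and with TPM over mRNA entries no interval was computed, and called means at least 2-fold alone. No p-value is given, since each group holds 1 library. For mRNA TPM, 4 protein-coding loci within 10 kb of ribosomal RNA genes were left out.

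Symbols, chromosomes and neighbours came from a RefSeq gene table of another assembly version (TAIR10.1), so no coordinates are given. No genome sequence was used here. The members and lists were chosen with earlier results of these data known. Named loci are the 8 members, in each of 7 lists the pair with the most reads and the highest and lowest double ratio, and the loci nearest in profile. Exceptions are marked. CAM1, CAM2, XTH25, CPK28, AT5G42370 and loci overlapping or beside a member were named for their place or role. The procedure was run on simulated Poisson counts with planted changes, which checks the calculation only. That simulation holds no spread between libraries, copies made by PCR or error of Salmon. Alternatives were 3 other scalings, deposited TPM, 2 reads added, lower read minimums and 3 settings chosen after seeing the data.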

Additional observations from a re-analysis of the deposited data

Results flagged for a closer look

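For 2 genes the IP over input ratio lay on opposite sides of 0 in MTA-GFP and in the control, with 1 library behind each value, and the difference was not tested. CML23 had a log2 double ratio of 2.50, made of 1.25 in MTA-GFP and -1.26 in the control, where the control IP had 2 reads. TCH3 had a log2 double ratio of -0.41, made of -0.39 in MTA-GFP and 0.02 (-0.13 to 0.17) in the control. With mRNA scaling the TCH3 ratios were -0.09 in MTA-GFP and -0.09 in the control, with a double ratio of 0.00, so they no longer lay on opposite sides of 0.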

How the results depend on the processing

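Of 30 member ratios, 10 passed the 2-fold rule with TMM, and none of these 10 changed sign under 10 other settings. The setting with the shorter TCH2 model was run for TCH2 alone. Ratios not called with TMM did: with library totals TCH2, TCH3, CML37 and CML38 were called higher in MTA-GFP IP over input, at 1.80, 1.78, 1.80 and 1.62. With reads scaled to library totals, 6 genes were called higher in MTA-GFP IP over input (median 1.80), 6 lower in control IP over input (-2.21), 6 higher in the double ratio (4.50), 6 higher between the IPs (2.54) and 5 lower between the inputs (-1.62). The medians of all loci moved by 2.14, -1.11, 3.26, 2.32 and -0.94 in that order, and those with mRNA scaling by 0.29, -0.11, 0.41, 0.35 and -0.05. With mRNA scaling, 2 genes were higher in MTA-GFP IP over input. With deposited TPM 7 of the 10 calls were lost and 3 others gained. Calls with TPM, here and below, rest on at least 2-fold alone, with no interval. The medians were then 0.57 for MTA-GFP IP over input and -0.24 for control IP over input (1 gene lower), and 0 genes were higher between the IPs or lower between the inputs. The 0.1 added is large beside most deposited TPM values of these genes. With TPM over mRNA entries plus 1, a setting chosen after seeing the data, 2 genes were higher in MTA-GFP IP over input, 5 in the double ratio and 2 between the IPs.

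With 0.5 reads added without scaling to the library, also chosen after seeing the data, the CML23 double ratio was 2.29 and was no longer called. In the double ratio 1376 loci were higher and 1399 lower with TMM, 15124 and 24 with library totals, 2778 and 649 with mRNA scaling, 613 and 89 with deposited TPM, and 4690 and 681 with TPM over mRNA entries. The counts with TPM use the fold alone, so they follow another rule than the rest. Median-of-ratios factors, 2 reads added, and minimums of 10 reads or 1 read changed no call of the 6 genes. Depth limits CML23, CML39 and CML42, with 10 reads or fewer in at least 3 libraries or 28 in all. No paired analysis was possible because each group holds 1 library.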
